A study of Mus musculus with 4 samples.

Results

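In 427 places of the mouse genome, a YAP peak of wild-type (WT) epidermis overlapped exactly 1 peak of Bmal1 knockout (KO) epidermis, yet the highest points of both peaks lay more than 200 bp apart. These shifted-summit sites were chosen by that rule: an overlap of at least 1 bp with a single KO peak and no KO summit within 200 bp of the WT summit. They made up 1.17% of the 36576 WT peaks and 3.07% (95% exact Clopper-Pearson interval 2.79 to 3.37) of the 13891 WT peaks that overlapped 1 KO peak. Those 13891 are called single-partner peaks below, and the other 13464 of them, called unshifted, are the comparison group. A KO peak can be the partner of 2 WT peaks, as at 26 shifted sites. The 427 sites have 425 different KO peaks, since 2 KO peaks each overlap a pair of shifted WT peaks.

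The lists came from YAP chromatin immunoprecipitation followed by sequencing (ChIP-seq) of epidermal cells of adult mice, aged 18 to 25 weeks and killed at Zeitgeber time 4 (ZT4, the hours since lights on). The 2 groups were Bmal1 WT and Bmal1 KO, the latter called Bmal1cKO in the treatment protocol (deleted cells and driver: not given in the sources used here). There was 1 peak list per group, of 14879 peaks in KO and 36576 in WT, marked as pooled without saying over what. With 1 list per group there is no replicate spread: no test was run, no p-value is given, and each interval covers counting error over sites only.

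YAP is a co-activator without a DNA-binding domain of its own. It reaches DNA through TEAD factors, which recognise a short element around the letters GGAATG, and at enhancers it often sits beside AP-1. The Hippo kinases hold YAP in the cytoplasm. BMAL1, with CLOCK, drives the transcription loop of the circadian clock. A peak's summit is the point of the highest signal and usually lies close to the bound element, so a summit that differs between lists marks a place where the strongest point of signal was not the same in both.

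Reads at each summit were recovered from the deposited fold and −log10 p, as described in the section on processing, and both lists had the same even-spread background of 9.63 reads in these units. Recovered reads had a median of 61 over all WT peaks and 52 over all KO peaks. Peaks do not measure expression, so the tissue label could not be checked by it. As a description, 20 of 20 basal and 29 of 30 differentiated keratinocyte genes had a linked WT peak, against 6 of 10 melanocyte, 5 of 10 endothelial, 4 of 9 T cell, 3 of 10 fibroblast and 2 of 10 Langerhans genes. Lists that mark no cell type were high too, such as 30 of 30 cytoskeleton and adhesion and 33 of 36 YAP, TEAD and Hippo genes. The TGF-β and matrix list had 19 of 27. The share over all protein-coding genes is not given here, so these counts do not speak to cell identity.

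Some shifted sites lay at promoters, and the letters there are set beside those of unshifted promoter sites. A promoter is given here as the RefSeq window of 250 bases before to 50 after a protein-coding transcription start (GRCm38.p6, the build called mm10). Of the shifted sites, 54 had the WT summit inside such a window and 47 the KO summit. The first set shows the highest-scoring shifted sites whose WT summit window holds GGAATG or its reverse complement CATTCC, the core read by TEAD factors, with those 6 letters in capitals. Each is written 5′ to 3′ in the direction of the gene.
Zfp219, chr14:52020684-52020983, minus strand: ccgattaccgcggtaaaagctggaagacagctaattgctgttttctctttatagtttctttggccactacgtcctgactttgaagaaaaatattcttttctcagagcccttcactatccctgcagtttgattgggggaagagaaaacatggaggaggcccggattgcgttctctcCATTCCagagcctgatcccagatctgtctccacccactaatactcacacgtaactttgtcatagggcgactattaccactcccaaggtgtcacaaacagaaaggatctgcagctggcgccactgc
Rtn4, chr11:29692648-29692947, plus strand: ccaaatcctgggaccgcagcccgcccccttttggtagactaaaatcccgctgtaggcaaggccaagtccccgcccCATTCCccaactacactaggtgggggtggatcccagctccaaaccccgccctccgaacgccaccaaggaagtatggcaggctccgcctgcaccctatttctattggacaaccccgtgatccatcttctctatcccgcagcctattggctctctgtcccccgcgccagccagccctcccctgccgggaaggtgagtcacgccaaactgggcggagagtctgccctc
Ppa2, chr3:133309860-133310159, plus strand: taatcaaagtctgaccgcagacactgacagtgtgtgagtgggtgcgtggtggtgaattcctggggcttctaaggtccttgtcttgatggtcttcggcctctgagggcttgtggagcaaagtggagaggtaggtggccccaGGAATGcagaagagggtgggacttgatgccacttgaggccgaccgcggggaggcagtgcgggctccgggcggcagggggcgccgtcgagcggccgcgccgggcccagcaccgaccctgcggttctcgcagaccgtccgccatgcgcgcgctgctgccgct

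In these windows the core lay upstream of the WT summit: the centre of the match was at -8 bases from the summit at Zfp219, -24 at Rtn4 and -56 at Ppa2. The KO summit lay elsewhere, 976, 463 and 331 bp from the WT summit, with 88, 76 and 70 reads in WT and 38, 40 and 39 in KO. Zfp219 encodes a zinc finger protein, Rtn4 the membrane protein Nogo and Ppa2 a mitochondrial pyrophosphatase.

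The second set shows the commoner case, the highest-scoring shifted sites whose window holds no such core. Capitals here mark the base of the WT summit with 10 bases on either side.
Sema4a, chr3:88455712-88456011, minus strand: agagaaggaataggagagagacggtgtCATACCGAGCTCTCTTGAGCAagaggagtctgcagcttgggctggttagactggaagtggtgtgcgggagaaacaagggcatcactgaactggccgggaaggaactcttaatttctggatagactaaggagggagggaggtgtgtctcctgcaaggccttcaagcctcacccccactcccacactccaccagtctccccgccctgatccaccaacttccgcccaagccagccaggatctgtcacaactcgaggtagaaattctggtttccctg
Tpra1, chr6:88902001-88902300, plus strand: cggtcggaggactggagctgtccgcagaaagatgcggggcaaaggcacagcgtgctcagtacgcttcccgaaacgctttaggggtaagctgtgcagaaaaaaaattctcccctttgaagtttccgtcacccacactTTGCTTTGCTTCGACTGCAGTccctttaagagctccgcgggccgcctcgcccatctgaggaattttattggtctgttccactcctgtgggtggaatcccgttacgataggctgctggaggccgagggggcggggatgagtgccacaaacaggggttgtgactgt
Pard6b, chr2:168080754-168081053, plus strand: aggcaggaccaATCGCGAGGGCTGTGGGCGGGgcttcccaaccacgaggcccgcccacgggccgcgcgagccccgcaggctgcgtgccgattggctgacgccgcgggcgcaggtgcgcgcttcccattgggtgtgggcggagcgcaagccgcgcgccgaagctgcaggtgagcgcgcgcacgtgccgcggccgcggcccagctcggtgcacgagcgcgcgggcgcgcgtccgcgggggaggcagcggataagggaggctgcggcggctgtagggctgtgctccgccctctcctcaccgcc

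Sema4a encodes a semaphorin, Tpra1 a membrane protein and Pard6b a cell polarity protein. Positions from the start are given in bp below, negative upstream. At Sema4a the summit was at -213 in WT and 44 in KO, with 142 and 55 reads. At Tpra1 it was at -104 and -378, with 120 and 56 reads, and at Pard6b at -229 and -512, with 132 and 76. The rule itself places all KO summits of shifted sites outside such capitals. Those of Tpra1 and Pard6b also lay outside the window.

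For comparison, the 2 highest-scoring unshifted sites of this kind are shown with the core in capitals, at Lmbrd1 and at Lats2, which encodes a Hippo kinase.
Lmbrd1, chr1:24678294-24678593, plus strand: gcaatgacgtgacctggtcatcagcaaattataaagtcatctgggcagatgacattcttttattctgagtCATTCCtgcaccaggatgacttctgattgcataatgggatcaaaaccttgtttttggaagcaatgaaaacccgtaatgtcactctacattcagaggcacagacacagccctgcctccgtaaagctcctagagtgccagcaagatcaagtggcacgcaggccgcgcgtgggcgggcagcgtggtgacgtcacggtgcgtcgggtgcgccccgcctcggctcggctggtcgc
Lats2, chr14:57746074-57746373, minus strand: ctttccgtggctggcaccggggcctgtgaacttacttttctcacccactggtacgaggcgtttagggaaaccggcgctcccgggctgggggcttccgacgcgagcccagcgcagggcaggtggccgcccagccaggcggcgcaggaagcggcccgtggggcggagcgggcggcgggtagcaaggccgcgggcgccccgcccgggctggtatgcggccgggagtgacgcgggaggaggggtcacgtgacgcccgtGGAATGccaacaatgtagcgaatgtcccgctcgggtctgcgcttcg

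The centre of the core was at -32 bases from the WT summit at Lmbrd1 and at 22 bases at Lats2. The WT and KO summits were 13 and 25 bp apart. Summit reads were 240 in WT and 111 in KO at Lmbrd1 and 241 and 137 at Lats2.

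Windows with a shifted WT summit held the TEAD core less often than windows with an unshifted one. The core (GGAATG, both strands) was found in 6 of 54 shifted windows (11.1%, interval 4.19 to 22.6) and in 233 of 875 unshifted windows (26.6%, 23.7 to 29.7), against 13.6% of all 21263 windows. With the shorter GGAAT the intervals overlapped. At the KO summits of shifted sites the share was 3 of 47 (6.38%, 1.34 to 17.5), and at unshifted KO summits 26.1% of 881. The 6 shifted promoters with the core were those of Zfp219, Rtn4, Ppa2, Cactin, Dars and Nutf2, of which the last 3 were named after their values were seen. Weak sites held the core less often in general, and the gap was narrower among them. Under 80 WT reads the shares were 9.76% of 41 shifted (2.72 to 23.1) and 14.5% of 332 unshifted windows (10.9 to 18.7), intervals that overlap. From 80 reads they were 2 of 13 shifted (15.4%, 1.92 to 45.4) and 34.1% of 543 unshifted windows (30.1 to 38.2). WT peaks were also split at 900 bp of width, a split chosen after seeing the data. At 900 bp or wider the shares were 10.8% of 37 shifted (3.03 to 25.4) and 30.1% of 299 unshifted windows (24.95 to 35.6). In narrower peaks they were 11.8% of 17 (1.46 to 36.4) and 24.8% of 576 (21.3 to 28.6). Within each of these read and width classes the intervals of shifted and unshifted windows overlapped.

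Other letters differed less. The AP-1 element TGANTCA was in 9.26% of shifted and 8.11% of unshifted WT summit windows, against 6.99% of all windows. The E-box CACGTG, the element bound by BMAL1 with CLOCK, was in 16.7% (7.92 to 29.3) and 11.5% (9.501 to 13.8), against 7.84% of all windows. The GC box GGGCGG, a common promoter element, was in 75.9% and 70.3%, against 46.2%. The median share of G and C was 63.2% in shifted and 62.3% in unshifted windows and 56.3% in all windows. The counting intervals of shifted and unshifted windows overlapped for these 3 elements. In WT peaks of 900 bp or wider, a split chosen after seeing the data, the E-box was in 24.3% of 37 shifted (11.8 to 41.2) and 9.70% of 299 unshifted windows (6.59 to 13.6). In narrower peaks it was in 0 of 17 shifted windows (0 to 19.5) and in 12.5% of 576 unshifted ones. A match is only a run of letters and shows no binding.

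The distance between summits set the rule and is given as a description. Over all pairs with 1 KO partner, summits were within 50 bp of each other at 67.0% of sites and within 100 bp at 88.5%. The shifted sites had distances from 201 to 1527 bp, with a median of 319 (quartiles 237 and 487). Of them, 132 lay above 200 and up to 250 bp, and 8 lay above 1000 bp. There was no gap at the limit: 20 shifted sites had distances of 201 to 205 bp, and 21 unshifted sites had 196 to 200 bp. Just inside stood the site near Ctdsp1, a small phosphatase gene, with 202 bp and 113 WT and 61 KO reads. Just outside stood a site in Adgrg6, an adhesion receptor gene, with 197 bp and 109 and 59 reads.

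**Figure D1:**
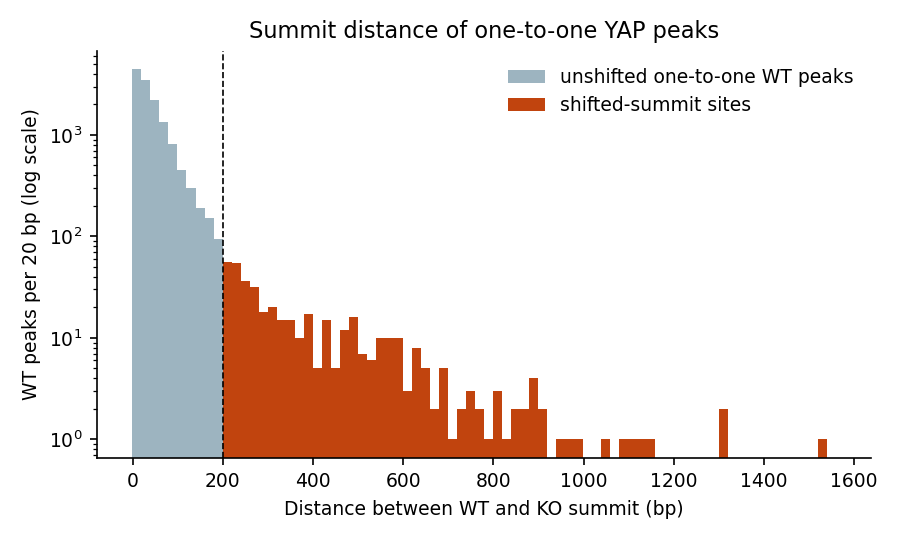
Number of WT peaks per 20 bp of distance between the WT and KO summits, on a log count axis, for unshifted sites (grey) and shifted-summit sites (red), with the limit of 200 bp as a dashed line. Counts fall steadily across the limit, and the farthest shifted site is at 1527 bp.

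In most shifted sites the KO peak lay within the WT peak but had its summit elsewhere. The KO summit was inside the WT peak at 384 of 427 sites, and the KO peak was the narrower at 394. These were 89.9% and 92.3% of shifted sites, against 99.9% and 96.0% of unshifted ones. The KO peak lay wholly within the WT peak at 71.4% of shifted and 82.7% of unshifted sites. All these traits were thus more common among unshifted sites. Both summits lay inside both peaks at 230 sites (53.9%), with a median distance of 266 bp, so there the KO signal was highest at a point other than the WT summit although the KO peak covered both. At a further 154 sites (36.1%) the KO summit was inside the WT peak but the KO peak did not reach the WT summit. There the WT peak had a median width of 1061 bp, the KO peak one of 362.5 bp, and summits were 420 bp apart at the median. The remaining sites were 18 whose WT summit was in the KO peak alone and 25 where neither summit was in the other peak.

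A small class joined neighbouring WT peaks. At 24 sites (5.62%, 3.63 to 8.25) the KO summit lay nearer to the summit of another WT peak, at a median of 66.5 bp from it. The gap between the neighbouring WT peaks was 52 to 435 bp. Against their own WT peak these sites had a median log2 KO to WT ratio of -0.15 above background, and against the nearer WT peak one of -0.72, negative at 24 of 24. Nearly all single-partner peaks had a negative ratio, with 0.454% above 0, and the median of unshifted sites was -0.88. In each case the KO peak overlapped both WT peaks, and its summit lay closer to that of the neighbour than to that of the shifted site. The largest shift of all, 1527 bp, was of this kind. It lay near Ppl, which encodes periplakin of the cornified envelope, at chr16:5134387-5135755, and 2745 bp separated its summit from the gene. It had 244 WT (214 to 277, exact Poisson interval) and 164 KO reads (140 to 191). Its KO peak of 2375 bp had its summit 15 bp from that of the next WT peak.

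Shifted sites were wider and had fewer summit reads than unshifted ones. Their WT peaks had a median width of 992 bp (quartiles 759.5 and 1222), against 672 bp (542 and 881) for unshifted sites. Their WT summits held a median of 71 reads (quartiles 60 and 86) and unshifted ones 93 (74 and 120). Their KO summits held 41 (37 and 48) against 53 (44 and 68). Over all WT peaks the medians were 516 bp and 61 reads, so shifted sites stood above these in both. WT peaks split into 2 or more KO peaks were wider still, at 1611 bp, but stronger, at 117.5 reads. The share of shifted sites rose from 1.36% (0.966 to 1.87) in the narrowest of 5 equal classes of WT width to 8.28% (7.28 to 9.37) in the widest. It was 11.5% (8.25 to 15.4) under 50 WT reads and 0.444% (0.179 to 0.914) from 150 reads. Local background at the WT summit, in reads, was 12.1 at the median in shifted and 11.5 in unshifted sites. The part of width and read number in the shift was not tested.

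The KO summit held fewer reads than the WT summit at nearly all shifted sites, as at unshifted ones. At shifted sites these are 2 positions more than 200 bp apart, so the values compare peak heights. Signal of either list at the summit of the other list was not measured. Above background, the log2 KO to WT ratio had a median of -0.92 (quartiles -1.12 and -0.68) in shifted and -0.88 (-1.06 and -0.69) in unshifted sites. It was under -1 at 169 of 427 shifted sites (39.6%, 34.9 to 44.4), against 32.6% of all WT peaks with 1 KO partner. This contrast also enters the rule, so the values only describe the sites. KO reads equalled WT reads at 1 shifted site and exceeded them at 10 (2.34%), against 0.454% of all such pairs, and 8 of the 10 had a KO summit nearer to another WT summit. The highest of these was in Zfp800, with 42 WT and 131 KO reads, where the KO summit lay 393 bp away and 16 bp from another WT summit.

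**Figure D2:**
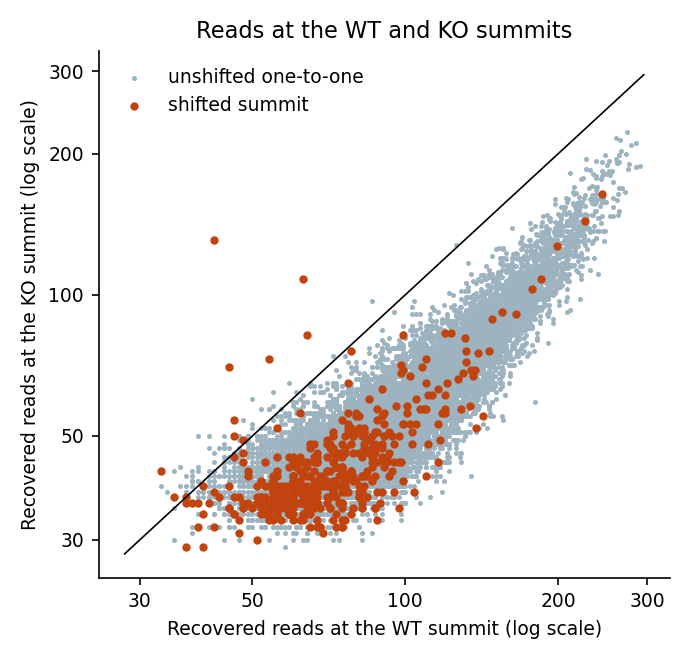
Recovered reads at the KO summit against those at the WT summit, both on log axes, for unshifted (grey) and shifted-summit sites (red), with the line of equality. Most shifted sites lie under 100 WT reads and below the line; those far above it are sites such as Zfp800 (42 WT and 131 KO reads).

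Shifted summits lay near transcription starts much more often than unshifted ones. The WT summit was within 1 kb of a protein-coding start at 153 of 412 shifted sites (37.1%, 32.5 to 42.0) and at 1857 of 13028 unshifted sites (14.3%, 13.7 to 14.9). These counts leave out chromosome 18, whose starts were not used here. The share was 19.7% (15.97 to 23.9) for WT peaks split into several KO peaks, 21.9% (21.3 to 22.4) for WT peaks without a KO peak and 19.2% for all WT peaks. With gene spans in place of starts, 45.9% of shifted WT summits (41.1 to 50.8) were within 2 kb of either gene end, against 21.5% (20.8 to 22.2) of unshifted ones. Inside a gene span lay 53.9% and 50.9%.

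The share near a start grew with the distance between summits and then levelled. It was 11.1% (9.91 to 12.5) where summits were at most 10 bp apart, 16.3% (14.98 to 17.7) above 50 and up to 100 bp, and 29.97% (25.1 to 35.3) above 150 and up to 200 bp, all unshifted sites. Among shifted sites it was 36.3% (29.5 to 43.6) up to 300 bp, 41.6% (32.9 to 50.8) up to 500 bp and 32.99% (23.8 to 43.3) beyond. The median WT width also changed along this scale, from 666 bp at distances of at most 10 bp to 1247 bp beyond 500 bp, and median WT reads from 101 to 73.

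**Figure D3:**
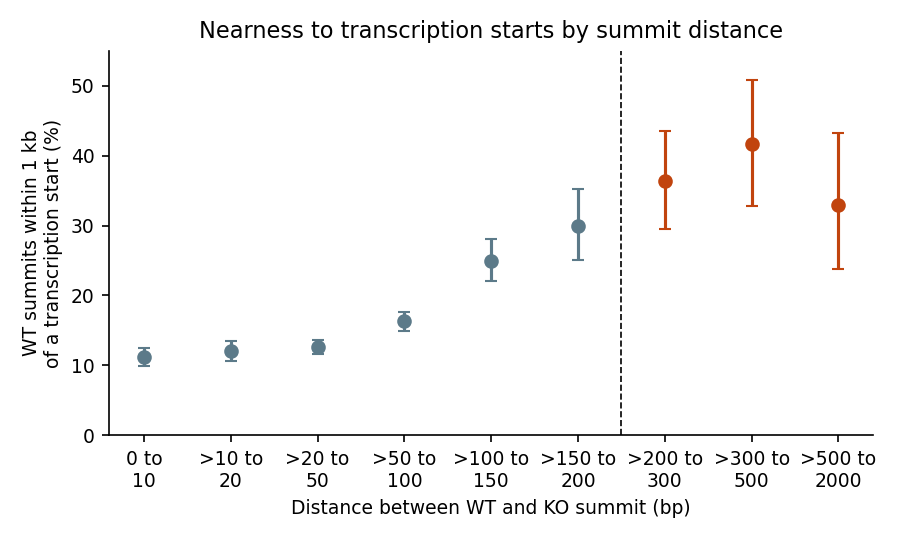
Percent of WT summits within 1 kb of a protein-coding transcription start, by distance between the WT and KO summits, with 95% Clopper-Pearson intervals; grey points are unshifted, red points shifted sites, and the dashed line is the limit of 200 bp. The share rises from 11.1% at distances of at most 10 bp to between 32.99% and 41.6% beyond the limit.

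Near starts the share of shifted sites was higher in each of the 5 width classes, but the intervals were separate only in the narrowest and the widest. In the widest class of WT peaks (967 to 3642 bp), 14.1% (11.7 to 16.8) of peaks within 1 kb of a start were shifted, against 6.05% (5.03 to 7.20) of those farther away. In the narrowest class it was 4.84% (2.24 to 8.99) against 1.11% (0.739 to 1.60). Between them the shares were 1.61% and 0.740%, 3.11% and 1.23%, and 5.16% and 3.06%, with overlapping intervals. At 60 to 69 WT reads, 14.4% (10.6 to 18.8) near starts and 3.92% (2.91 to 5.15) elsewhere were shifted. Under 50 reads the shares were 11.8% (4.44 to 23.9) and 11.3% (7.74 to 15.7), with overlapping intervals.

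**Figure D4:**
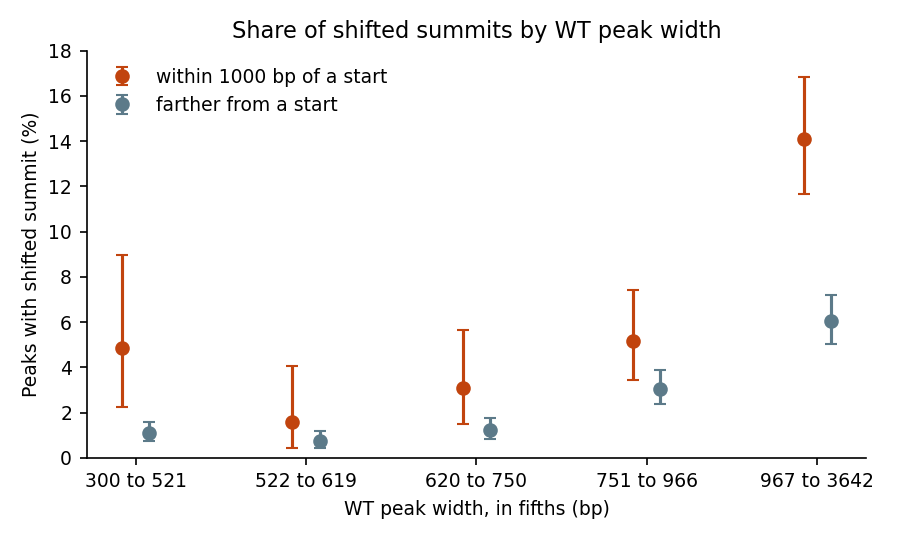
Percent of WT peaks with a shifted summit in the 5 classes of WT peak width, for peaks within 1000 bp of a transcription start (red) and farther away (grey), with 95% Clopper-Pearson intervals. In the widest class the shares are 14.1% near starts and 6.05% elsewhere.

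Around starts, WT and KO summits of the shifted sites had different profiles, with both kinds found on either side. A total of 173 shifted sites had either summit within 2 kb of the start nearest to the WT summit. WT summits lay from 50 to 250 bp downstream of the start at 40 of these sites (23.1%, 17.1 to 30.1), and KO summits at 13 (7.51%, 4.06 to 12.5). From 250 to 1000 bp upstream the order was reversed, with 13 WT and 31 KO summits beyond 500 bp and 15 and 28 within it. From 50 to 250 bp upstream there were 34 WT and 26 KO summits, and from 250 to 500 bp downstream 16 and 20. Since the rule keeps the 2 summits apart, both cannot crowd at the same place. Both were also measured from the start nearest to the WT summit, which favours WT summits close to it. The profiles thus differ in part by construction, and how far was not tested. The rule does not set which summit lies upstream. The KO summit was upstream of the WT summit at 103 of the 173 sites (59.5%, 51.8 to 66.9), an interval that takes in 50% under 5 of 9 alternatives. Where the WT summit was within 250 bp of the start, it was upstream at 60 of 92 (65.2%, 54.6 to 74.9). Unshifted sites near starts had 50.7% (48.6 to 52.8), and those with the WT summit within 250 bp of the start 52.9% (50.01 to 55.8). In unshifted sites whose summits were above 100 and up to 200 bp apart the share was 54.3% (48.7 to 59.8), which overlaps that of the shifted sites. Shifted sites away from starts had 44.8% (38.4 to 51.3). With respect to the chromosome, the KO summit was at the higher coordinate at 230 of 427 sites (53.9%, 49.0 to 58.7).

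**Figure D5:**
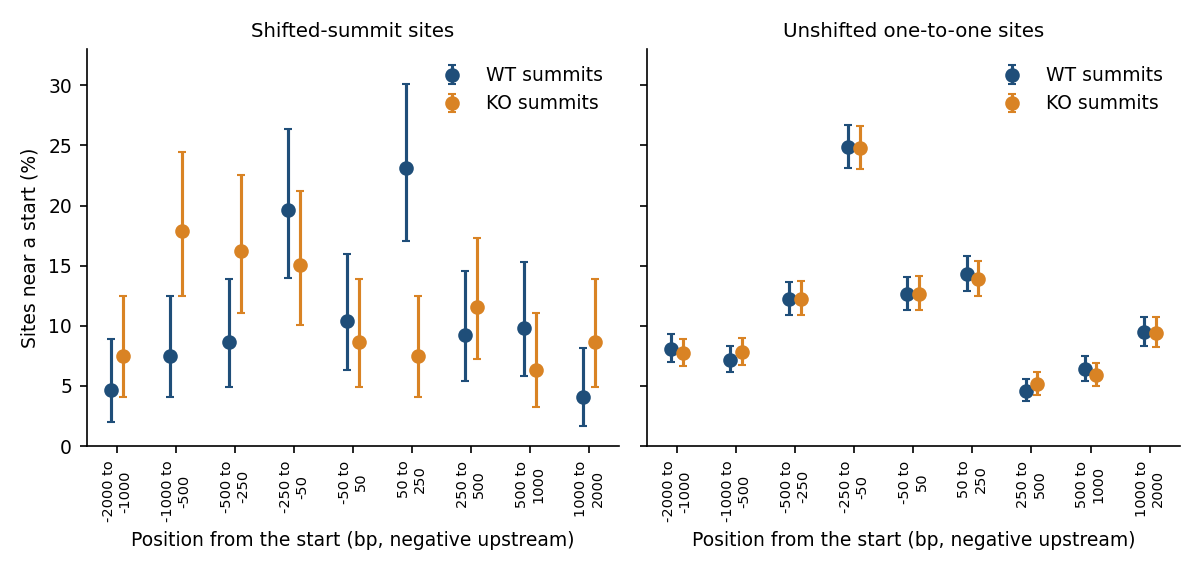
Percent of sites near a start whose WT (blue) or KO (orange) summit lies in each interval of position from the start, negative upstream, for 173 shifted (left) and 2259 unshifted sites (right), with 95% Clopper-Pearson intervals. In shifted sites WT summits exceed KO summits from 50 to 250 bp downstream (23.1% and 7.51%), while in unshifted sites both follow the same profile. Positions are from the start nearest to the WT summit, and the rule holds unshifted summits within 200 bp of each other. Both choices shape these profiles.

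The site at the promoter of Klf4, a factor of terminal differentiation, gives the pattern in 1 place. The WT peak spanned 1884 bp at chr4:55532291-55534174, with its summit at -13 from the start and 50 reads (exact Poisson interval 37.1 to 65.9). The KO peak was 344 bp wide, with its summit at -1057 and 35 reads (24.4 to 48.7). The counting intervals of the reads overlap, so no difference in height was detectable at this depth. The called positions differed by 1044 bp, but the error of a summit's position with so few reads was not estimated. At Bcl2l13, a BCL2-family gene, the summit was at -160 in WT and 1149 in KO, with 78 and 42 reads. At Usp24, a deubiquitinase gene, it was at 1180 in WT and 54 in KO, with 86 and 44 reads, so here the KO summit was the nearer to the start. Babam2, of a BRCA1 complex, had its summits at 61 and 1052, with 75 and 41 reads. Its deposited fold was 3.79 in WT and 3.90 in KO, with a local background of 18.7 and 9.63 reads. The other sites with the largest distances lay at Zfp219, Scaf1 and 3110009E18Rik, with the WT summit within 250 bp of the start, in Myo1e, and at a site without a gene within 100 kb on chromosome 6. Of the 10 largest shifts, that at Ppl, that in Myo1e and that at Scaf1 led to a KO summit within 100 bp of another WT summit.

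Of the 10 shifted sites with the highest WT score, those at Ptpn14 and Atg10 lay within 1 kb of a start, and the others were farther away or inside genes. The site linked to Dll1, which encodes a Notch ligand, had 226 WT (197 to 257) and 144 KO reads (121 to 170) with summits 310 bp apart, at chr17:15325676-15327638. Its WT summit was 41102 bp away from the gene. The peaks were 1963 and 1672 bp wide and each held both summits. Syn3, a synapsin gene, had 155 and 92 reads at a site inside the gene with summits 631 bp apart. Sites of this group linked to Gcnt2, Kif13a and Rnf144b, which encode a glycosyltransferase, a kinesin and an E3 ubiquitin ligase, had 135, 137 and 132 WT and 69, 69 and 72 KO reads. Atg10, an autophagy gene, had 165 and 91 reads, with the summit at 210 from the start in WT and -672 in KO. The site at chr13:72197790-72199441, without a gene within 100 kb, had 178 and 103 reads and summits 363 bp apart. By KO score, further sites were those in Rnase4 (123 WT and 83 KO reads), in Sema4b (120 and 83) and in Arhgap1 (63 and 108, the KO summit 52 bp from another WT summit). At Sema4b local background was 21.6 reads in WT and 9.63 in KO, and the deposited fold was 5.27 and 7.79.

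Of the YAP, TEAD and Hippo genes, 4 of 36 had a shifted site: Amotl1, Amotl2, Arhgef17 and Ptpn14, of which the site at Amotl1 is the highest-scoring. These were 4 of the 93 single-partner peaks of the list (4.30%, 1.18 to 10.7), against 3.07% of all such peaks, a share near the background. Amotl1, which encodes an angiomotin that retains YAP, had 199 WT (172 to 229) and 127 KO reads (106 to 151) with summits 375 bp apart, and lay 13067 bp from the gene. Ptpn14, a phosphatase that binds YAP, had 185 (159 to 214) and 108 reads (88.6 to 130) in the peak at chr1:189727179-189728558. Its summit was at -288 from the start in WT and -738 in KO. At Amotl2, the sister gene of Amotl1, the summit was at -2232 in WT and -2744 in KO, with 87 and 44 reads. Arhgef17 had 81 and 37 reads with summits 318 bp apart.

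Clock genes had 2 shifted sites, at Per1 and Nfil3, of 53 single-partner peaks (3.77%, 0.460 to 13.0), near the 3.07% of all such peaks. Per1, a repressor of BMAL1 with CLOCK, had a WT peak of 981 bp at chr11:69098608-69099588, with the summit at 425 from the start and 64 reads. Its KO peak of 311 bp had the summit at 35 and 37 reads. Local background at the summit was 20.2 reads in WT and 9.98 in KO, and the deposited fold was 3.03 and 3.42. The KO peak did not reach the WT summit. Nfil3, a repressor of clock output genes, had 46 and 34 reads with summits 567 bp apart. Its KO summit lay 82 bp from the summit of another WT peak, which had 70 reads.

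Shifted sites were also linked to Fosl2 and Atf3, whose proteins are part of AP-1, and to Maf, a related leucine zipper factor. Fosl2, a FOS-family gene, had the summit at -621 in WT and -1317 in KO, with 118 WT (97.7 to 141) and 56 KO reads (42.3 to 72.7), in peaks of 2304 and 1581 bp. The site linked to Atf3, a stress-induced factor, had 84 and 41 reads with summits 223 bp apart, 32902 bp from the gene. That linked to Maf had 85 and 49 reads with summits 433 bp apart, 64928 bp from the gene.

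Differentiated keratinocyte genes had 5 shifted sites of 93 (5.38%, 1.77 to 12.1), at Ppl, Klf4, Dsc1, Abca12 and Grhl3, an interval that includes the 3.07% of all single-partner peaks. Basal keratinocyte genes had 0 of 84 (0 to 4.30), an interval that includes it too. Dsc1, a desmosomal cadherin gene, had 86 WT and 50 KO reads with summits 299 bp apart. Abca12, the lipid transporter of lamellar granules, had 47 and 31 reads. The site linked to Grhl3, a barrier factor, lay 24713 bp from the gene and had 62 and 56 reads. Its KO summit lay 122 bp from another WT summit. Hair follicle and stem cell genes had 3 of 71 (4.23%, 0.880 to 11.9), at Nfatc1, Nfib and Plet1, also near 3.07%. At Plet1 the summit was at -42 from the start in WT and -254 in KO, with 56 and 41 reads. The sites of these lists that are neither the highest-scoring of their list nor among the 10 highest or most shifted were named after their values were seen.

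The remaining lists had shares whose intervals include the 3.07% of all single-partner peaks. Inflammation and NF-κB genes had 2 of 79 (2.53%, 0.308 to 8.85), linked to Tnfaip3, a brake on NF-κB, and Ccl20, a keratinocyte chemokine. The Tnfaip3 site, 46852 bp from the gene, had 116 WT and 63 KO reads and summits 272 bp apart. The Ccl20 site had 37 reads in both lists. Its KO summit lay 34 bp from the summit of another WT peak, which had 44 reads. Actb was the 1 gene of 66 cytoskeleton and adhesion peaks, with 54 and 39 reads, and Col4a2 the 1 of 34 TGF-β and matrix peaks, with 45 and 39. EGF and MAPK genes had 0 of 57 (0 to 6.27) and cell cycle genes 0 of 29 (0 to 11.9). Melanocyte, Langerhans, T cell, fibroblast and endothelial genes had 0 of 3 to 5 single-partner peaks each, too few to give a share.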

How the data were processed

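YAP ChIP-seq peak lists of WT and KO epidermis were used, 1 per genotype; no file of the inputs was used. The submitters' processing notes name Trimmomatic 0.36, SAMtools 1.5, MACS2 2.1.1 and the build mm10, without roles; aligner, control and filters: not given in the sources used here. In both lists the authors' deposited score is 10 times the −log10 q, rounded down. The deposited fold is a ratio of summit signal to background, and the authors' −log10 p and −log10 q accompany it. The last column deposited by the authors gives the summit's distance from the peak start.

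Reads were recovered by finding, for each list, the scaling at which fold and p give a whole number of reads under Poisson scoring. The −log10 p matched within 0.002 in 100% of peaks, against 0.930% (WT) and 0.397% (KO) with the scaling 3% off. The scaling was 0.694 for WT and 0.842 for KO, and where several scalings matched the largest was taken. The search was tested on simulated lists made with the same formulas. Pools of unknown make-up limit these reads to comparisons in these units. Overlaps gave the same count of single-partner peaks in bedtools 2.31.1. Summits were linked to the nearest of 21631 protein-coding spans within 100 kb, and to protein-coding starts from 21263 RefSeq promoter windows of 17492 genes; some genes have no window. Sequences of overlapping windows on opposite strands were reverse complements in 808 of 808 pairs. Without a genome, letters at summits outside these windows were not analysed here. Ratios are log2 of reads above background. Python 3.11.15, NumPy 2.4.6 and SciPy 1.17.1 were used.

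The named sites were the 10 highest by WT score, by KO score and by shift, the 5 highest by WT score with a KO peak on 1 WT peak, and the highest of each gene list. Promoters printed and sites at the limit were taken from the highest-scoring of their kind, a rule added after seeing the data. Members and lists were chosen with earlier results of these data known; starts, promoter letters and their alternatives were added after seeing the data. The count for the list of AP-1 genes is not reported here. Alternatives changed the summit limit, the overlap rule, the lists and the gene distance.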

Additional observations from a re-analysis of the deposited data

How the results depend on the processing

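Limits of the data: 1 list per genotype, summits of weak peaks set by few reads, and no signal outside called peaks. Of 79 alternative values, 48 stayed within the interval of the reported value and 31 moved beyond it. The median log2 ratio, the one value that can have either sign, was negative in 9 of 9 alternatives. The share of single-partner peaks that were shifted was 11.5% and 1.66% at limits of 100 and 300 bp, 1.97% with 50% reciprocal overlap, 2.33% for the higher-scoring 50% of WT peaks, 2.05% when only as many top WT peaks as KO peaks were kept, and 2.72% where −log10 q reached 5. The median distance was 147 and 480.5 bp at those limits and 278 bp with reciprocal overlap. The median width was 801, 1099.5, 939, 1065, 1094 and 1025.5 bp in the same 6 settings. The share with a KO summit nearer to another WT summit was 1.63%, 10.0%, 0.431%, 2.82% and 2.18% in the first 5. The median log2 ratio was -1.01 and -1.04 with the higher-scoring and the reduced list and -0.75 without background subtraction. The share near a gene end was 35.9% at 100 bp, 36.6% with reciprocal overlap, 38.9% within 1 kb and 56.7% within 5 kb. The share within 1 kb of a start was 29.3% at 100 bp and 27.7% with reciprocal overlap, and 29.9% of WT summits were within 500 bp. GGAAT, the core without its last letter, was in 37.0% of shifted (24.3 to 51.3) and 51.2% of unshifted WT summit windows (47.8 to 54.6), so the intervals, separate for GGAATG, overlap with the shorter letters. The share with the KO summit upstream was 54.4% to 62.4% over 9 alternatives. Its interval includes 50% in 5 of them, those with a limit of 300 bp, reciprocal overlap, the higher-scoring peaks, the reduced list and −log10 q of 5, each with fewer sites. The changed limits, lists and distances alter which sites are counted; other causes were not tested. No paired analysis was possible because there are no replicate lists to pair. Alternatives for letters in windows centred on summits could not be run without a genome.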

Other observations

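Shifted sites were spread over many genes. Of the 427, 402 were linked to a protein-coding gene within 100 kb, and these were 386 different genes. A total of 15 genes had 2 or more. Rnf144b, an E3 ubiquitin ligase gene, had 3 shifted sites among 12 single-partner and 18 WT peaks. Rad51b, a DNA repair gene, had 2 among 27 single-partner and 53 WT peaks. Tbc1d16, a Rab regulator, had 2 among 3, and Pard6b, a polarity gene, 2 among 5. Shf had 2 of 2 single-partner peaks shifted. At Gopc and at Prpsap2 the 2 shifted WT peaks shared 1 KO peak, so 1 KO summit was counted for both. These genes were named after their counts were seen. Of all single-partner peaks 3.07% were shifted, and how many genes would have 2 or more at that share was not tested.

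Another WT summit lay within 10 kb of 70.7% of shifted (66.16 to 75.002) and 68.3% of unshifted sites (67.5 to 69.1). By chromosome, the shifted share of single-partner peaks was lowest on chromosome 19 (1.86%, 0.852 to 3.49) and highest on chromosome 9 (4.58%, 3.26 to 6.23). Chromosome X had 4.32% (1.60 to 9.16), and chromosome 7, which carries Arntl, the gene of BMAL1, had 3.002% (1.97 to 4.37).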
